A study of Mus musculus with 8 samples.

Results

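The 10 genes described here belong to muscle wasting and autophagy: Fbxo32, Trim63, Foxo1, Foxo3, Sqstm1, Map1lc3a, Map1lc3b, Gabarapl1, Atg5 and Atg7. They were chosen by name, and every non-control probe carrying one of these names was used, which gave 10 of 23962 named genes, 15 of 55681 probes and 33 of 59305 spots. RNA came from C2C12 myotubes on day 4 of differentiation, 4 samples with control siRNA and 4 with siRNA against macroH2A1.1, 1 of the splice forms of the histone variant gene Macroh2a1. C2C12 is a mouse myoblast line that fuses into multinucleated myotubes when serum is withdrawn. Both groups are cells of this single line, and both carry a transfected siRNA. Titles and design call the treated samples siRNA samples, and this is used here, although a characteristic of theirs reads as a macroH2A knockout. The labels name no other genotype or agent. Replicates are biological by their labels, with no word on separate cultures, so the p-values cover only the spread among the samples at hand.

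Muscle protein is broken down mainly by the proteasome and the lysosome. Fbxo32 (atrogin-1) and Trim63 (MuRF1) are muscle ubiquitin ligases that mark proteins for the proteasome, and both are known for rising in many forms of muscle atrophy. Foxo1 and Foxo3 are transcription factors that Akt keeps out of the nucleus when insulin or IGF1 signals, and in the nucleus they raise both ligases and several autophagy genes. In autophagy, small Atg8 proteins, encoded among others by Map1lc3a, Map1lc3b and Gabarapl1, are joined to the lipid of a growing membrane that encloses cargo. Atg7 is the E1-like enzyme that activates them, and Atg5 belongs to the complex that completes the joining. Sqstm1 (p62) carries ubiquitin-marked cargo to that membrane and is degraded with it.

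Each probe is 60 bases long, and 5 of the 10 genes had a pair of probes. The probes of Foxo1, Atg7 and Sqstm1 gave differences of unlike size. A probe of each is shown, with 1 of Trim63, as the array files give them on build mm9. The size of the difference did not decide which is shown. Those shown gave the smaller differences: Foxo1 -0.43 (other probe -0.72), Atg7 -0.04 (other probe 0.30) and Sqstm1 0.0021 (other probe -0.27). No annotation of that build was used here, so exon and UTR positions are not stated. The 4 probes lie at chr4:133881557-133881616 on the plus strand (Trim63), chr3:52150183-52150242 on the plus strand (Foxo1), chr11:50015985-50016044 on the minus strand (Sqstm1) and chr6:114657539-114657598 on the plus strand (Atg7).
Trim63 probe 1: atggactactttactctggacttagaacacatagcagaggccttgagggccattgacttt
Foxo1 probe 1: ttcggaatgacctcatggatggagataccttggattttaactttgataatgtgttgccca
Sqstm1 probe 2: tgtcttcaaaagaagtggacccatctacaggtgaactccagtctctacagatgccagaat
Atg7 probe 1: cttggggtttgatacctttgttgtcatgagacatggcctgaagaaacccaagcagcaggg

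Because FoxO proteins bind the letters GTAAACA or ATAAACA, the 250 bases before the gene start were searched for both forms on either strand, together with 50 bases after it. Promoter sequences are RefSeq's on GRCm38.p6, and 8 of the 10 genes matched an entry. Fbxo32 and Map1lc3a had no entry, so their promoters were not searched. Of these 8, only Trim63 (GTAAACA) and Gabarapl1 (ATAAACA) held a match, and 7.97% of all 32851 promoters in the same table held one. Both are shown because they carry these matches, with the match in capitals. Trim63 is at chr4:134314870-134315119 on the plus strand, and its match starts 194 bases before the gene start as the reverse complement TGTTTAC.
Trim63: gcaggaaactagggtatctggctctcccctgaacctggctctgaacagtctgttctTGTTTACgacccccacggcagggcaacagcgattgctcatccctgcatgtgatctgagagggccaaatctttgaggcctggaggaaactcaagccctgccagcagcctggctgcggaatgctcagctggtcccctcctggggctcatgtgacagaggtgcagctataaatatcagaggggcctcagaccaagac
Gabarapl1: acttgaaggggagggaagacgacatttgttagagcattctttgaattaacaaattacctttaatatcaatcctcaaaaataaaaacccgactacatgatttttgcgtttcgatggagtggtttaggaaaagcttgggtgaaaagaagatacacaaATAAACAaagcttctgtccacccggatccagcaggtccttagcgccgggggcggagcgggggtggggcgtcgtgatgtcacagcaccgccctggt
Gabarapl1 is at chr6:129532942-129533191 on the plus strand, and its match starts 95 bases before the gene start. The palindrome CACGTG, the core letters bound by TFEB-type factors of lysosome and autophagy genes, was in the windows of Atg5 and Atg7 and in 7.15% of all promoters. A match describes the letters only and is no evidence of binding.

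Per array, 46.9% to 49.8% of spots exceeded background clearly, no spot was saturated, and precision is limited by having 4 arrays a group. The array of siRNA replicate 2 stood apart on the first principal component, at 60.3 against -27.5 to 7.94 for the other 7. Values without it are given below for Fbxo32, Trim63, Foxo1, Map1lc3a and Gabarapl1. The representing probe of Macroh2a1 had 50.6% of its control signal left with macroH2A1.1 siRNA (log2 difference -0.98, SE 0.10, limma adjusted p = 0.043 unpaired, 0.0139 paired), and each siRNA sample lay below each control. Which splice forms this probe reads was not examined, so the value is not given as the loss of macroH2A1.1 alone. Samples of the same replicate number deviated together, so each difference is also given from a fit that takes the number as a block, called paired below. Levels are log2 signals after subtracting the 75th percentile of each array, a gene is represented by its brightest kept probe, and the levels of different probes are not compared. Differences are macroH2A1.1 siRNA minus control on the log2 scale, and the threshold is an adjusted p of 0.05 over all 13786 genes. With 4 samples a group, the smallest exact permutation p is 0.0286, or 0.125 within pairs.

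All 10 genes were measured, through 14 of 15 probes. None passed the threshold without pairing, where limma called 3 genes on the whole array (0.0218%, of which 0.00725% higher and 0.0145% lower), and none passed with pairing, where it called 1098 (7.96%, of which 4.21% higher and 3.76% lower). At an unadjusted limma p under 0.05 there were 3 of the 10 without pairing (12.1% of all genes) and 5 with it (27.8% of all genes). Of the 10 genes, 6 lay above 0 and 4 below, with a median difference of 0.01 against 0.0045 over all genes. The groups did not overlap for Atg7, higher (4.36% of all genes did so), and for Atg5, lower (3.55% of all genes). Foxo1, below 0, and Atg7, above 0, came nearest the threshold in the paired fit, and 1 probe of Foxo1 passed it with pairing. In 13 other settings of the paired fit Foxo1 passed in 6, Atg7 in 4 and Trim63 in 2, and the remaining 7 genes passed in none.

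**Figure D1:**
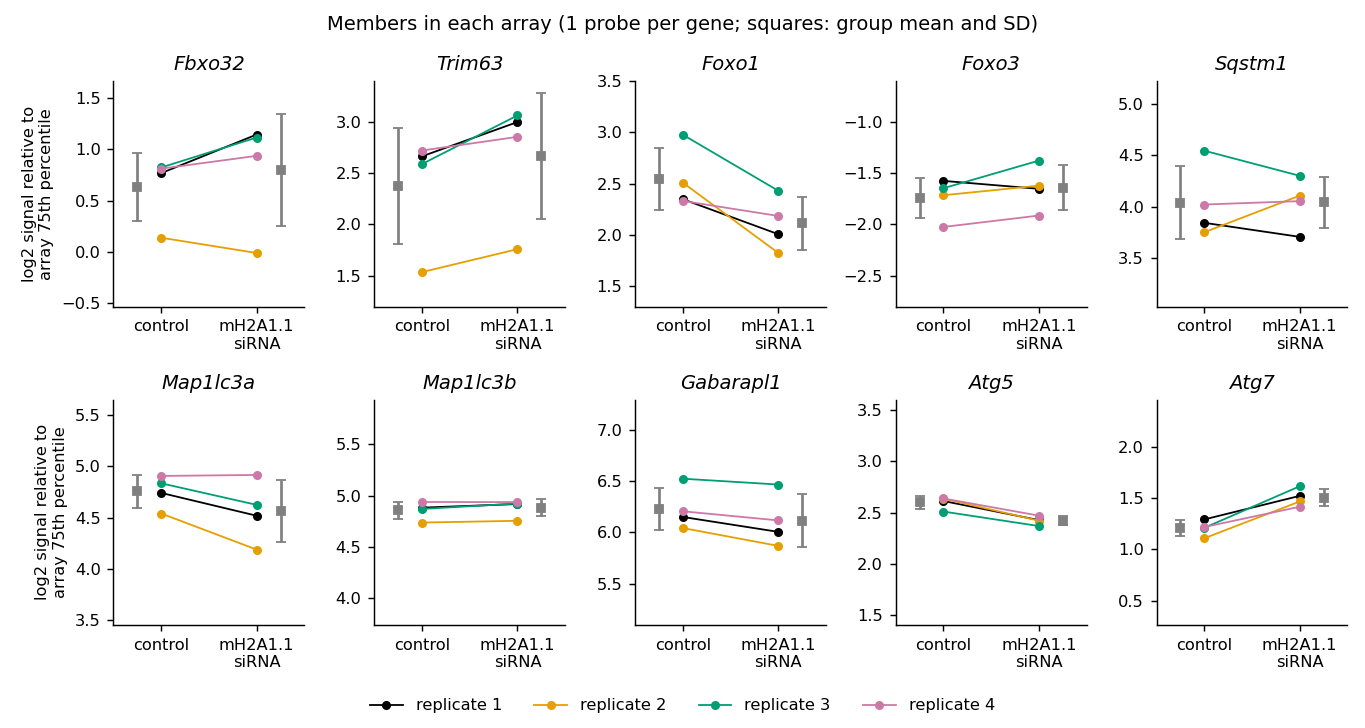
Each panel shows 1 gene, with the log2 signal over the 75th percentile of the array on the y axis (each panel spans the same number of log2 units) and the control and macroH2A1.1 siRNA (mH2A1.1) arrays on the x axis. Points are the 8 arrays, lines join the same replicate number, and squares with bars are group means and SD (n = 4). Atg7 and Atg5 are the genes whose groups do not overlap, and replicate 2 is far below the others for Fbxo32 and Trim63.

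The ubiquitin ligases came higher in most pairs, with the spread between samples larger than the difference. Fbxo32 stood at 0.77, 0.14, 0.82 and 0.81 in the control samples 1 to 4 and at 1.15, -0.01, 1.12 and 0.94 in the siRNA samples. The groups overlapped, since replicate 2 was the lowest sample of both, and the gene was higher in 3 of 4 pairs. The difference was 0.16 (SE 0.28; limma adjusted p = 0.899 unpaired, 0.350 paired).

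Trim63 was higher in 4 of 4 pairs through its representing probe, as were 20.1% of all genes. That probe, probe 2, stood at 2.66, 1.53, 2.59 and 2.72 in controls and at 2.999, 1.76, 3.06 and 2.85 in siRNA samples. Replicate 2 was again the lowest of both groups, by about 1 log2 unit, so the groups overlapped although each pair moved upwards. The difference was 0.29 (SE 0.36 without pairing and 0.08 with it; limma adjusted p = 0.833 and 0.074; exact permutation p = 0.457 and 0.125), with 0.28 in the first array row of the slide and 0.30 in the second. Probe 1, 3468 bases away, gave 0.24, higher in 3 of 4 pairs, and the ratio of the probes did not differ beyond its spread (exact permutation p = 0.457). Without control replicate 2 the unpaired difference of Trim63 was 0.01 and that of Fbxo32 was -0.0046, and without siRNA replicate 2 they were 0.59 and 0.43 (limma adjusted p = 0.447 and 0.401).

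Fbxo32 is printed at 10 spots per array, so the spread between spots of an array can be given. The SD between its spots was 0.045 to 0.090 within an array, and the spots of control replicate 2 ranged from 0.06 to 0.23 while those of the other control arrays ranged from 0.59 to 0.96. The spots of replicate 2 did not overlap those of the other arrays, a spread that covers spots only and not labelling, array or culture.

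**Figure D2:**
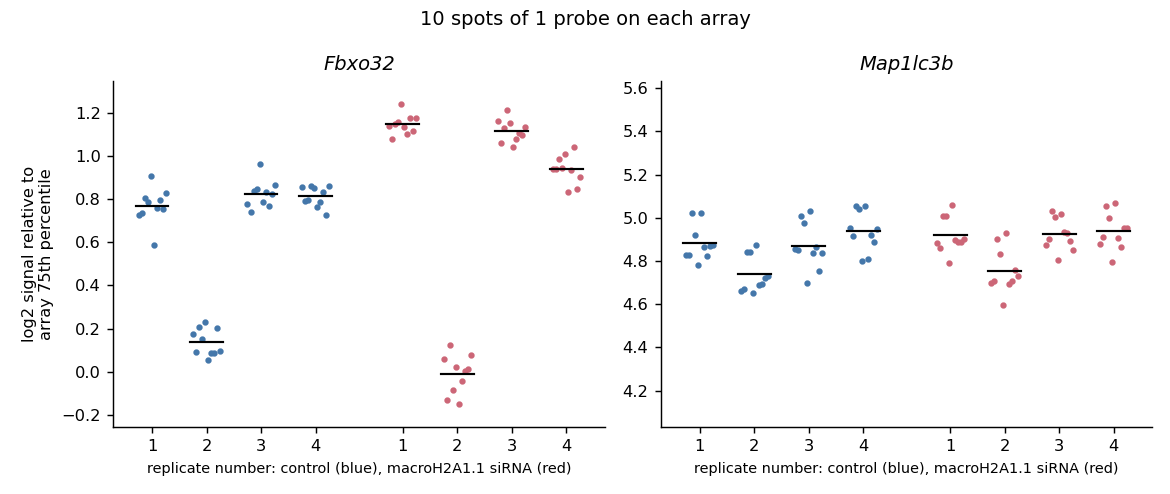
The log2 signal over the 75th percentile of the array is plotted for each of the 10 spots of the Fbxo32 and Map1lc3b probes on each array, with replicates of both groups along the x axis. All spots of replicate 2 lie below those of the other replicates for Fbxo32 in both groups.

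Fbxo32, Trim63, Map1lc3a, Map1lc3b and Gabarapl1, 5 of the 10 genes, were lowest in replicate 2 of both groups, a pattern held by 2298 of 13733 genes (16.7%). Marker lists moved with the replicates and the groups. The level of a list is the median, over its genes, of the centred log2 levels. The myotube list (12 of 12 measured: myosin heavy chains, Ckm, Acta1, Ttn and others) was at 0.10, -0.49, 0.04 and -0.39 in controls. In siRNA samples it was at 0.52, -0.09, 0.30 and 0.08. With pairing 8 of its 12 genes rose (0, 1, 0 and 3 without pairs 1 to 4), where 4.21% of all genes were called higher and 3.76% lower. Without pairing 0 of the 12 were called. In this list 11 genes were above 0, with a median difference of 0.42, and Myh4 was at -1.05, higher in 0 of 4 pairs. The summed linear signal was 1462 to 2051 in controls and 1833 to 2851 in siRNA samples. The list of proliferating cells (10 of 10 measured) was highest in replicate 2 of both groups, at 1.09 in control and 1.29 in siRNA, with sums of 48.2 to 75.8 and 48.8 to 87.8. Their part in the levels of Fbxo32 and Trim63 was not tested. In bulk RNA, fewer cells of a type and less RNA per cell cannot be told apart.

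**Figure D3:**
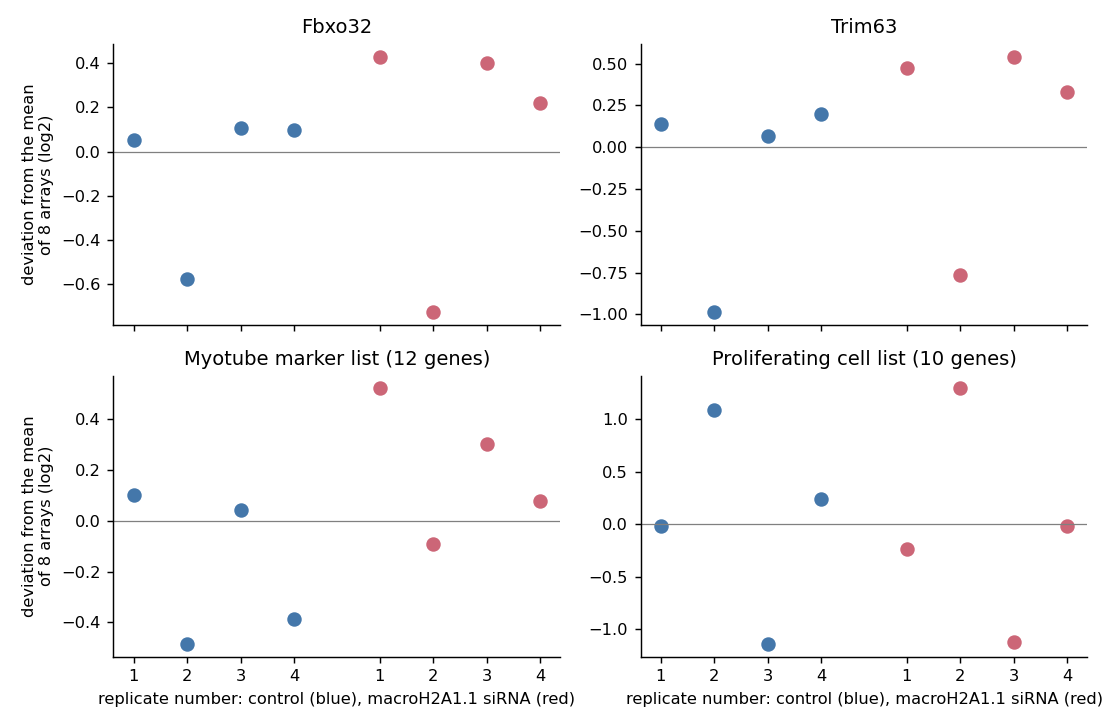
The y axes give log2 deviations from the mean of the 8 arrays for Fbxo32 and Trim63, and the median of such deviations over the genes of the myotube and proliferating cell lists. Replicates lie along the x axis (blue for control, red for macroH2A1.1 siRNA). Replicate 2 is the lowest for both ligases and the highest for the proliferating cell list in both groups.

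Other marker lists bear on the same libraries. The interferon list (10 of 12 measured) was above 0 for all 10 genes, with siRNA levels of 0.17, 2.41, 2.16 and -0.63 against -1.19 to -0.77 in controls. Its summed signal was 10.1 to 12.4 in controls and 13.1 to 114 in siRNA samples. Usp18, Ifit1 and Rsad2 were well above background on 1, 2 and 2 of 4 control arrays and on 4 of 4 siRNA arrays. They were kept only through the siRNA group, so the filter favoured values above 0 for them. Of the markers of undifferentiated myoblasts, Pax7 and Myf5 were not measured, and of the other 4, 1 rose and 2 fell with pairing (sums 67.2 to 98.9 and 49.0 to 73.0). The fibroblast list (5 of 7) had 1 gene lower and summed to 360 to 437 in controls and 296 to 501 in siRNA samples, and the macrophage list (5 of 6, Ptprc not measured) had none called and summed to 21.7 to 24.5 and 19.3 to 25.8. In the macrophage list 2 genes lay above 0 and 3 below. Its largest difference was that of Cd68, at 1.32, higher in 4 of 4 pairs (limma adjusted p = 0.0896 with pairing). Of the adipocyte list 1 of 6 was measured, the fatty acid binding protein Fabp4, while the defining marker Adipoq and 4 more were not measured. Fabp4 was well above background on 2 of 4 control arrays and 4 of 4 siRNA arrays. It was thus kept only through the group where it is higher, and no test of it is given. Its difference was 1.42, higher in 4 of 4 pairs, but 0.56 under normexp and 0.46 with the series values. The part of these lists in the results below was not tested.

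By the likeness of centred profiles over the 8 arrays, the genes nearest to Fbxo32 were Mief2, an adaptor of mitochondrial fission (root mean square distance 0.0976), Cobl, an actin nucleator (0.0985), and Zfp763 (0.114), against a median distance of 0.444 over all genes. Those nearest to Trim63 were Hsph1, a chaperone of the heat shock family (0.0974), Mief2 (0.178) and Pdk4, a kinase that restrains pyruvate dehydrogenase (0.187), against a median of 0.566. These are descriptions over 8 arrays that share the low replicate 2.

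Foxo1 was lower in 4 of 4 pairs through both probes, by 0.43 through one and 0.72 through the other. Probe 1, the brighter one, stood at 2.35, 2.51, 2.98 and 2.33 in controls and at 2.01, 1.82, 2.43 and 2.18 in siRNA samples. The groups overlapped through siRNA replicate 3, which lay above control samples 1 and 4. The difference was -0.43 (SE 0.18 without pairing and 0.10 with it; limma adjusted p = 0.394 and 0.0613; exact permutation p = 0.0857 and 0.125), with -0.51 in the first array row and -0.35 in the second. The unpaired difference was -0.28 without control replicate 3 and -0.33 without siRNA replicate 2. Leaving out pair 2 gave a paired difference of -0.34 (limma adjusted p = 0.150).

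Foxo1 probe 2 lies at chr3:52153289-52153348 on the plus strand, 3106 bases from probe 1. It stood at 1.98, 2.04, 2.42 and 1.96 in controls and at 1.22, 1.26, 1.70 and 1.32 in siRNA samples, and no siRNA sample reached a control. Its difference was -0.72 (SE 0.15 without pairing and 0.06 with it), a fall to 0.606 of the control level. In the limma fit over all 24989 kept probes, adjusted p was 0.177 without pairing, where 1 probe was called (0.004%), and 0.0215 with it, where 784 were (3.14%, with 1.49% lower). The pair differences were -0.76, -0.78, -0.71 and -0.64. The exact permutation p was the smallest the design allows, 0.0286, and 0.125 within pairs. The paired call was lost without pair 1 (limma adjusted p = 0.105), pair 2 (0.0768) or pair 3 (0.115) and with no filter on dim probes (0.160), and held without pair 4 (0.0364) and under normexp, quantile, median centring and the series values. Its size stayed between -0.67 and -0.75 in these settings. The ratio of probe 2 to probe 1 was lower with siRNA by 0.29 (exact permutation p = 0.0286, adjusted 0.114 over the 4 pairs of probes compared, and 0.125 within pairs).

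**Figure D4:**
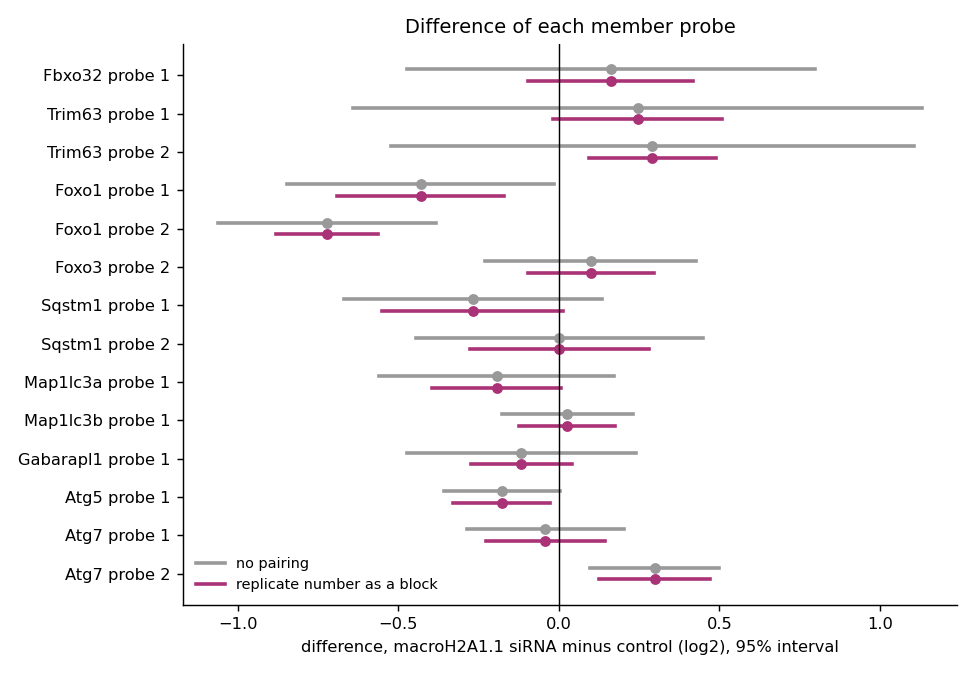
The x axis gives the log2 difference, macroH2A1.1 siRNA minus control, for each of the 14 kept probes of the 10 genes, with 95% confidence intervals from the unpaired and the paired limma fit. The Foxo1 probes lie furthest to the left and probe 2 of Atg7 is among those furthest to the right.

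Foxo3 was faint. Probe 1, assigned by the files to a RefSeq transcript, was well above background in 0 of 4 controls and in only 1 of 4 siRNA samples. It was therefore not kept and no fold is given. Probe 2, assigned by the files to a separate cDNA, stood at -1.58, -1.72, -1.65 and -2.02 in controls and at -1.65, -1.62, -1.38 and -1.91 in siRNA samples. The groups overlapped, and the difference was 0.10 (SE 0.14; limma adjusted p = 0.870 unpaired, 0.433 paired). Left-out samples moved the unpaired difference of Foxo3 from 0.0043 (without control replicate 4) and 0.01 (without siRNA replicate 3) to 0.15 (without control replicate 1) and 0.19 (without siRNA replicate 4).

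The autophagy enzymes showed small and opposite differences. Atg7, the E1-like enzyme, stood through probe 2 at 1.29, 1.11, 1.21 and 1.22 in controls and at 1.52, 1.47, 1.62 and 1.42 in siRNA samples. Every siRNA sample lay above every control. The difference was 0.30 (1.23-fold; SE 0.08 without pairing and 0.06 with it; limma adjusted p = 0.223 and 0.0515; exact permutation p = 0.0286 and 0.125), with 0.29 and 0.30 in the array rows.

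Atg7 probe 1, on an earlier part of the gene 152354 bases away, gave a different picture. It stood at -0.95, -0.74, -0.83 and -0.75 in controls and at -1.02, -0.93, -0.85 and -0.64 in siRNA samples, with a difference of -0.04 and overlapping groups. The ratio of probe 2 to probe 1 was higher with siRNA by 0.34, in 4 of 4 pairs (exact permutation p = 0.0571, adjusted 0.114 over the 4 pairs of probes, 0.125 within pairs), which does not pass after correction.

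Atg5 stood at 2.61, 2.64, 2.51 and 2.64 in controls and at 2.43, 2.42, 2.37 and 2.47 in siRNA samples. It was the tightest of the 10 genes, with SD 0.06 and 0.04 (n = 4), and the groups did not overlap. The difference was -0.18 (SE 0.07 without pairing and 0.05 with it; limma adjusted p = 0.378 and 0.102; exact permutation p = 0.0286 and 0.125), which is a level of 0.884 relative to control.

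Of the Atg8 genes, Gabarapl1 was lower in 4 of 4 pairs, which 17.6% of all genes were. It stood at 6.15, 6.04, 6.52 and 6.21 in controls and at 6.005, 5.87, 6.47 and 6.12 in siRNA samples, a difference of -0.12 (SE 0.15; limma adjusted p = 0.853 unpaired, 0.247 paired). The groups overlapped, and replicate 3 was the highest of both. The unpaired difference of Gabarapl1 was -0.02 without control replicate 3, -0.03 without siRNA replicate 2 and -0.23 without siRNA replicate 3.

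Map1lc3a stood at 4.74, 4.54, 4.83 and 4.91 in controls and at 4.52, 4.19, 4.62 and 4.92 in siRNA samples. It was lower in 3 of 4 pairs with overlapping groups, and the difference was -0.19 (SE 0.16; limma adjusted p = 0.711 unpaired, 0.173 paired), or unpaired -0.07 without siRNA replicate 2 and -0.31 without siRNA replicate 4.

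Map1lc3b, also at 10 spots per array, stood at 4.88, 4.74, 4.87 and 4.94 in controls and at 4.92, 4.76, 4.92 and 4.94 in siRNA samples, and the groups overlapped throughout. The difference was 0.03 (95% interval -0.18 to 0.23 without pairing; limma adjusted p = 0.946, and 0.784 with pairing), and it was -0.0079 under normexp and -0.0028 under quantile normalization.

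Sqstm1, the cargo receptor, stood through its representing probe 2 at 3.84, 3.75, 4.55 and 4.02 in controls and at 3.71, 4.11, 4.30 and 4.05 in siRNA samples. The pairs went both ways, and the difference was 0.0021 (95% interval -0.45 to 0.45; limma adjusted p = 0.998 unpaired, 0.992 paired). Its sign turned under normexp, quantile and median centring and with the series values. Probe 1, 3117 bases away and matched to a transcript model only, gave -0.27 with overlapping groups, and the ratio of the probes did not differ beyond its spread (exact permutation p = 0.4).

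The wider pathways were read from 10 lists of 192 genes outside the 10 described above, of which 187 were measured. Without pairing limma called none of them, and with pairing it called 10 higher and 3 lower, 6.95% against 7.96% of all genes. Of the measured genes 80 lay below 0 and the rest above, with a median of 0.03. The 13 calls became 0, 1, 0 and 5 without pairs 1 to 4, so each paired call below depends on which pairs are used.

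Among 17 further ubiquitin ligases linked to muscle 6 lay above 0 and 11 below, and Asb2 alone rose with pairing. Asb2 is the substrate-binding part of a ligase known for degrading filamins during muscle differentiation. It stood at -0.45, -0.89, -0.68 and -0.64 in controls and at 1.44, 1.64, 1.001 and 0.70 in siRNA samples, with no overlap. The difference was 1.86 (SE 0.21; limma adjusted p = 0.0529 unpaired, 0.0152 paired), while another Asb2 probe gave 0.09 (adjusted p = 0.865 with pairing over probes). Ubr2, an N-end rule ligase, was at -0.33 (adjusted p = 0.0775 with pairing) and did not pass.

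Upstream of FoxO, 13 of 26 genes of the insulin, Akt and mTOR control lay above 0 and 1 rose with pairing. That was Prkaa2, the catalytic AMPK subunit prominent in muscle, by 0.46 (SE 0.06 with pairing; limma adjusted p = 0.592 without and 0.0191 with it). It stood at -0.09, -0.76, 0.36 and 0.06 in controls and at 0.37, -0.23, 0.82 and 0.43 in siRNA samples, with overlap and again the lowest value in replicate 2 of both groups. Igf1r, the IGF1 receptor, was at -0.36 and did not pass (adjusted p = 0.0783 with pairing).

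Of 16 measured genes known as FoxO targets 9 lay above 0 and 7 below, 1 rose and 1 fell with pairing. Igfbp5, an IGF binding protein, was higher by 0.48 (limma adjusted p = 0.296 unpaired, 0.0202 paired). Txnip, which restrains glucose uptake and thioredoxin, was lower by 0.39 (limma adjusted p = 0.547 and 0.0270), and its other probe gave -0.46 (adjusted p = 0.0357 over probes).

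Of the 10 measured genes of Atg8 joining and the Atg8 family, Gabarap alone was called, lower with pairing. Gabarap encodes an Atg8 protein close to that of Gabarapl1 and stood at 6.27, 6.52, 6.47 and 6.36 in controls and at 5.88, 6.04, 5.996 and 6.07 in siRNA samples, with no overlap. The difference was -0.41 (SE 0.09 without pairing and 0.06 with it; limma adjusted p = 0.155 and 0.0266). Its other probes gave -0.52, called (adjusted p = 0.0308 over probes with pairing), and -0.12, not called (0.408). Atg4d, a protease that trims Atg8 proteins, was at 0.15 and did not pass.

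None was called in 3 further lists. Of 19 genes that start autophagy (the ULK and VPS34 complexes and their partners) 5 lay above 0 and 14 below, the largest differences being Pik3c3, the VPS34 kinase, at -0.28 (limma adjusted p = 0.0642 with pairing) and its partner Pik3r4 at -0.19 (0.0848). Of 12 genes of autophagy receptors and related factors 6 lay above and 6 below, with the receptor Bnip3 at -0.36 and Sesn2, a related factor, at -0.30. Of 24 genes of fusion and the lysosome 12 lay above and 12 below, with Tecpr1, a tethering factor, at 0.32 (adjusted p = 0.1002 with pairing).

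Of the 31 proteasome genes 27 lay above 0, as did 51.0% of all genes, and the median was 0.19 against 0.0045 over all genes. With pairing 4 rose (Psmc5, Psmc4, Psmb5 and Psma4), where 4.21% of all genes were called higher. As a median of centred levels the list stood at -0.09, -0.11, -0.01 and -0.12 in controls and at 0.17, 0.07, 0.09 and 0.01 in siRNA samples. By this median each siRNA sample lay above each control. Psmb5, a catalytic subunit, stood at 7.63, 7.64, 7.68 and 7.57 in controls and at 8.08, 7.93, 7.999 and 7.82 in siRNA samples, a difference of 0.33 (limma adjusted p = 0.190 unpaired, 0.0391 paired), and its other probe gave 0.21 (0.128 paired over probes). The other 3 differed by 0.30 to 0.34, and none of the 4 was called when any pair was left out, with no filter or with median centring. In the paired fit over probes their representing probes were not called (limma adjusted p = 0.0634 for Psmb5, 0.0563 for Psmc5, 0.0641 for Psmc4 and 0.0781 for Psma4). The proteasome genes lay above 0 in 25 to 29 of 31 when each pair was left out.

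Of 20 genes of ubiquitin and its conjugating enzymes 16 lay above 0, as did 51.0% of all genes, with a median of 0.03. That count was 12 under normexp, 13 with quantile normalization, 13 with median centring and 10 with the series values. Vcp, the segregase that extracts ubiquitin-marked proteins, rose by 0.34 with pairing (limma adjusted p = 0.0408). Ube2n, which builds lysine-63-linked chains, fell by 0.38 with pairing (limma adjusted p = 0.0413). Of 12 measured genes of the Nrf2 and Keap1 pathway, which Sqstm1 feeds by binding Keap1, 7 lay above 0 and 5 below, and 2 rose with pairing. The largest difference of the list was that of Nqo1, at -1.41 (SE 1.11 without pairing), higher in 2 of 4 pairs. It was not called (limma adjusted p = 0.704 unpaired, 0.420 paired) and was well above background on 3 of 4 siRNA arrays. Hmox1, the haem oxygenase, rose by 0.62 (limma adjusted p = 0.0164 with pairing, 0.460 without) and Gclc, of glutathione synthesis, by 0.41 (0.0364 and 0.277). The other Hmox1 probe gave 0.38 and was not called (adjusted p = 0.164 over probes with pairing), and the other Ube2n probe gave -0.22 (0.219). In that paired fit over probes the representing probe of Hmox1 was called (limma adjusted p = 0.0275). Those of Ube2n (0.0643), Vcp (0.0658) and Gclc (0.0561) were not.

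**Figure D5:**
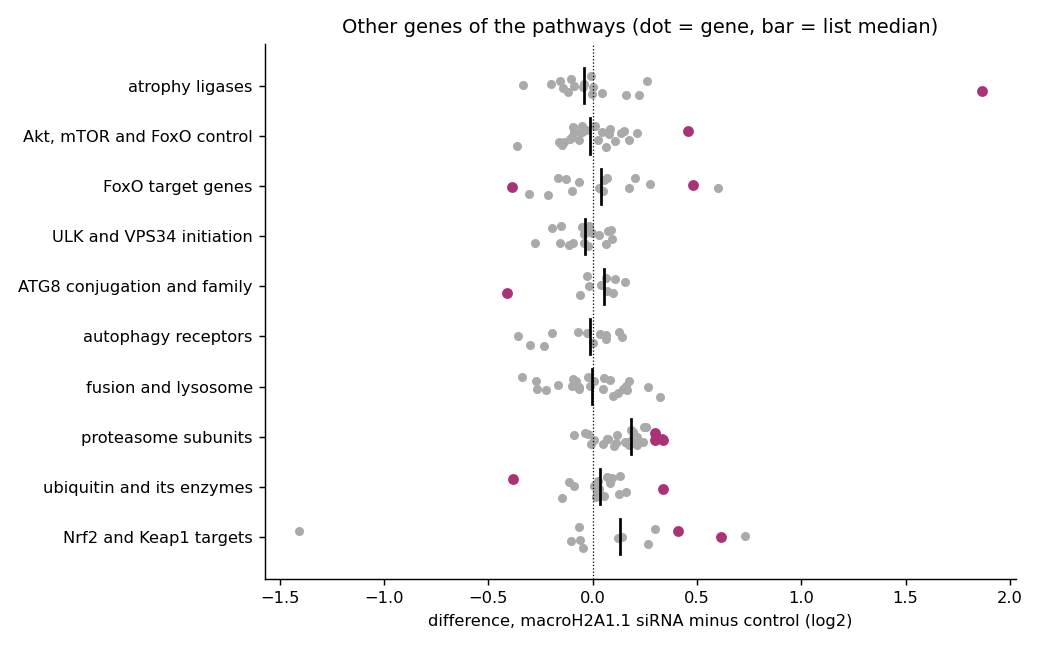
Log2 differences, macroH2A1.1 siRNA minus control, are plotted for the measured genes of the 10 pathway lists, 1 dot per gene, with purple for genes called in the paired fit and a black bar for the median of each list. The proteasome list has the highest median, 0.19, and the lists of autophagy initiation, receptors and lysosome hold no called gene.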

How the data were processed

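Cy3-labelled RNA (500 ng per sample, per the labels' protocols) was measured on 1-colour Agilent arrays. Per the file headers, the authors read spot intensity with Feature Extraction 10.7.3.1 on build mm9, and its processed intensity, after background subtraction, was used. The authors' deposited series values follow a log2 scale with equal quantiles in every column, and their background handling is not given in the sources used here. They served as an alternative. From log2 intensity the 75th percentile of the array was subtracted, outlier-flagged spots were dropped, and repeated spots of a probe were averaged. A probe had to be well above background on each of the 4 arrays of a group (24989 kept), and the brightest kept probe represented each of 13786 genes. Gene names came from the files, with 27509 probes matched by accession, 3549 by symbol and 404 by older symbol to the RefSeq table (GRCm38.p6, used for names and promoters), while 1638 kept the file's name and 22581 had none. The tests used limma 3.58.1 under R 4.3.3 (two-sided, Benjamini-Hochberg over all genes, or over all kept probes where a probe does not represent its gene), without and with the replicate number as a fixed block. Single values were tested with exact two-sided permutation tests.

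Whether replicate numbers pair the samples was checked through correlations of deviations from group means. Same-numbered samples gave 0.61, 0.55, 0.66 and 0.41, all above 0.1, so they were taken as paired. Same-numbered arrays are neighbours on the slide, so a common culture cannot be told apart from a common position. All control arrays lie in slide columns 1 and 3 and all siRNA arrays in columns 2 and 4. Group and column therefore cannot be told apart, and a block for the column cannot separate them. Named genes were all 10 members with every probe, from each pathway list up to 4 genes past the threshold with the block or, where fewer than 2 pass, the genes of largest difference up to 2, the 3 genes nearest in profile to Fbxo32 and to Trim63, and Macroh2a1. One gene that this rule takes is not reported here. The members and lists were chosen with earlier results of these data known. Alternatives were normexp (offset 50), quantile and median normalization, the series values, other filters, probe rules and slide blocks, trended robust eBayes and leaving out arrays or pairs. Columns belonging to other series numbered 0. The fits were tested on simulated data. Tables were handled in Python 3.11.15 (pandas 2.3.3) and plotted with matplotlib 3.10.9.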

Additional observations from a re-analysis of the deposited data

Results flagged for a closer look

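Of 30 groups of 4 samples (15 probes in both groups), 5 held a sample far from the other 3 by Dixon's criterion, which chance alone gives in about 1 in 20 groups. Fbxo32 in control replicate 2 stood at 0.14, with the nearest other control at 0.77. Trim63 probe 2 stood at 1.53 in control replicate 2 (nearest 2.59) and at 1.76 in siRNA replicate 2 (nearest 2.85). Map1lc3b stood at 4.76 in siRNA replicate 2 (nearest 4.92). Foxo1 probe 2 was highest in control replicate 3, at 2.42 (nearest 2.04), and without pair 3 its difference was -0.73. Of these 5, 4 are of replicate 2, and the cause was not tested.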

How the results depend on the processing

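With the replicate number as a block, the count of genes past the threshold went from 3 to 1098 and that of the pathway lists from 0 to 13, and no member changed sides through the block at gene level. Without pairing the 3 became 1 with median centring, 5 with a filter on all 8 arrays, 1 probe when each probe was tested alone, 10 with the array row as a block, 7 with the array column as a random block and 0 to 11 on leaving out 1 sample (11 without siRNA replicate 4). With the block the 1098 became 1898 under normexp, 1717 with the series values, 2076 with trended robust eBayes, 0 with no filter and 0 to 583 on leaving out a pair (0 without pair 1 or 3, 114 without pair 2, 583 without pair 4). Members past the threshold with the block went from 0 to 2 under normexp (Foxo1, Atg7), 1 with median centring (Foxo1), 3 with the series values (Foxo1, Atg7, Trim63), 2 with the filter on all 8 arrays (Foxo1, Atg7), 1 with the mean of probes (Foxo1), 1 probe when tested alone (Foxo1 probe 2) and 3 with trended robust eBayes (Foxo1, Atg7, Trim63). The 13 pathway genes became 22 under normexp, 21 with the series values, 0 with no filter and 0 to 5 on leaving out a pair (settings added after seeing the data). Sqstm1, at 0.0021, changed sign to -0.057 under normexp, -0.014 with quantile normalization, -0.017 with median centring, -0.04 with the series values, -0.13 with the mean of probes, -0.0012 with a percentile over spots bright on all arrays (added after seeing the data), -0.094 to 0.17 on leaving out 1 sample and -0.12 and -0.0083 without pair 2 or 4. Map1lc3b changed to -0.0079 under normexp, -0.0028 with quantile normalization and lay between -0.014 (without control replicate 2) and 0.069 on leaving out 1 sample. Fbxo32 lay between -0.0046 (without control replicate 2) and 0.43. At gene level Foxo1, Foxo3, Atg5, Atg7, Trim63, Map1lc3a and Gabarapl1 kept their direction in every setting run. Atg7 was at 0.13 with the mean of probes, and its probe 1 alone was at -0.04. The cause of these changes was not tested, and the number of arrays limits what can be called.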
